A study of Sus scrofa with 6 samples.

Results

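Genes of glycolysis and of the response to low oxygen were compared between aortic valve leaflets of castrated male and female pigs. The list holds 50 genes of glycolysis, pyruvate use, the pentose phosphate pathway, glycogen, gluconeogenesis and oxygen sensing with its targets. A gene was measured where the annotation of the array gives a probe set to that gene alone, and the probe set with the highest mean over the 6 arrays stood for it. By this rule 37 of the 50 genes were measured, among 6765 annotated genes in all. The other 13 (HK2, PFKFB3, ALDOA, PGAM1, PKM2, PDK1, PDK2, EGLN3, VHL, BNIP3, NDRG1, DDIT4 and PYGB) were not analysed here. PKM2 is an older symbol of PKM, which was measured, and the probe set of DDIT4 carries 2 gene entries.

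The RNA came from leaflets of 3 castrated male and 3 female pigs of mixed breed, 1 pig per array, at 5 months of age and about 90 kg. The hearts came from a slaughterhouse, the leaflets were taken within 5 hours of death, and the endothelium was scraped off with a scalpel before 400 ng of RNA per pig was labelled for the Affymetrix Porcine Genome Array. Castration removes the testicular hormones, so these males are not a model of the intact male. Values are on the log2 scale, as deposited after RMA (background correction, a common distribution for all arrays and 1 summary per probe set), so a difference of 1 is 2-fold, and levels of different genes are not compared because probe sets differ in brightness.

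Glycolysis splits glucose into pyruvate in the cytosol and yields ATP without oxygen. Lactate dehydrogenase then turns pyruvate into lactate, or the pyruvate dehydrogenase complex passes it on to the mitochondria, a step that the PDK kinases block. When oxygen falls, prolyl hydroxylases such as EGLN1 no longer mark HIF1A and EPAS1 for destruction, and these factors with their partner ARNT raise the transcription of many glycolytic genes. Valve leaflets are thin and largely without vessels, and their interstitial cells are fed by diffusion from the blood.

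No gene of the list passed both limits of the test between the sexes. With limits of 2-fold and an adjusted p of 0.05 in limma, 0 of 37 were called, while 0.304% of all 23999 probe sets were. The methods of the study include a filter on the CV (SD divided by mean) and do not name its limit. With the 10% of probe sets that had the highest CV over the 6 arrays, called the CV filter here, 3 of the 37 remained (PDK4, HMOX1 and PCK2) and 0 were called, against 7.59% of the 2412 features kept. Their adjusted p values in that comparison were 0.745, 0.443 and 0.595, and none had an unadjusted p under 0.05. A difference between the sexes itself raises a CV over all 6 arrays. Being kept by this filter is therefore not read as support, here or for other genes below. The fuller methods describe that filter the other way, as the removal of values that differ between replicates, so probe sets with a CV within a sex under the median were tested too, a choice made after the data were seen. Of the 25 genes kept, 0 were called, against 26 (0.216%) of the 12061 features kept. Without a minimum fold, LDHA (adjusted p = 0.0102 from limma) and CA9 (0.0219) passed, which is 8% of the 25, against 10.5% of the features kept. That filter selects on the spread that the test divides by, so its p values are too small.

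The differences that were seen were small and went both ways. Of the 37 genes 19 had a higher mean in males and 18 a lower one, which is 51.4% higher, against 58.3% of all annotated genes and 49.1% of all probe sets. The median log2 fold change, male minus female, was 0.01 for the list, 0.05 for annotated genes and -0.01 for all probe sets. The median size of the difference was 0.16 in the list and 0.15 over all probe sets. For 35 of the 37 genes the whole 95% confidence interval lay inside 2-fold in either direction, with bounds from -0.94 to 0.99. PDK4 and HMOX1 were the exceptions.

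**Figure D1:**
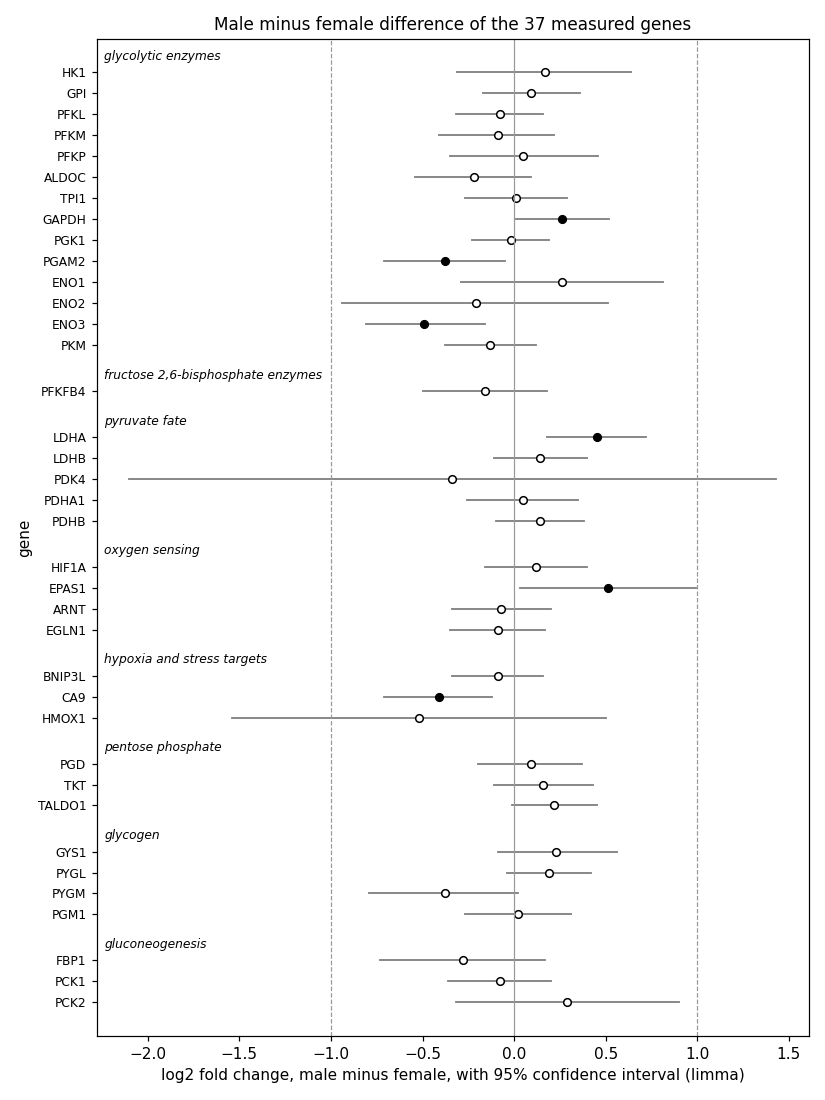
Log2 fold change, male minus female, of each measured gene (points) with its 95% confidence interval from limma (lines), grouped by role. Filled points have an unadjusted p under 0.05, and dashed lines mark 2-fold. The intervals of PDK4 and HMOX1 reach past 2-fold, and those of the other 35 genes do not.

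Unadjusted p values under 0.05 were found for 6 of the 37 genes (16.2%), 3 with a higher mean in males (LDHA, GAPDH and EPAS1) and 3 with a lower one (ENO3, CA9 and PGAM2). Over all probe sets the same limit was passed by 16.9%, by 8.08% with a higher and by 8.83% with a lower mean in males. Male and female values were fully apart for 8 genes (21.6%), against 22.4% of all probe sets. GAPDH, LDHA, PDHB, TALDO1 and PYGL lay above the female values on every male array, a pattern of 11.1% of all probe sets, and PGAM2, ENO3 and CA9 lay below, a pattern of 11.4%. Both shares of the list were close to those of the whole array with all 6 pigs. Without female 2, however, 21 of the 37 genes (56.8%) were apart, against 39.8% of all probe sets. With 3 pigs per sex, the smallest two-sided p of an exact permutation test is 0.1, so none was run.

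**Figure D2:**
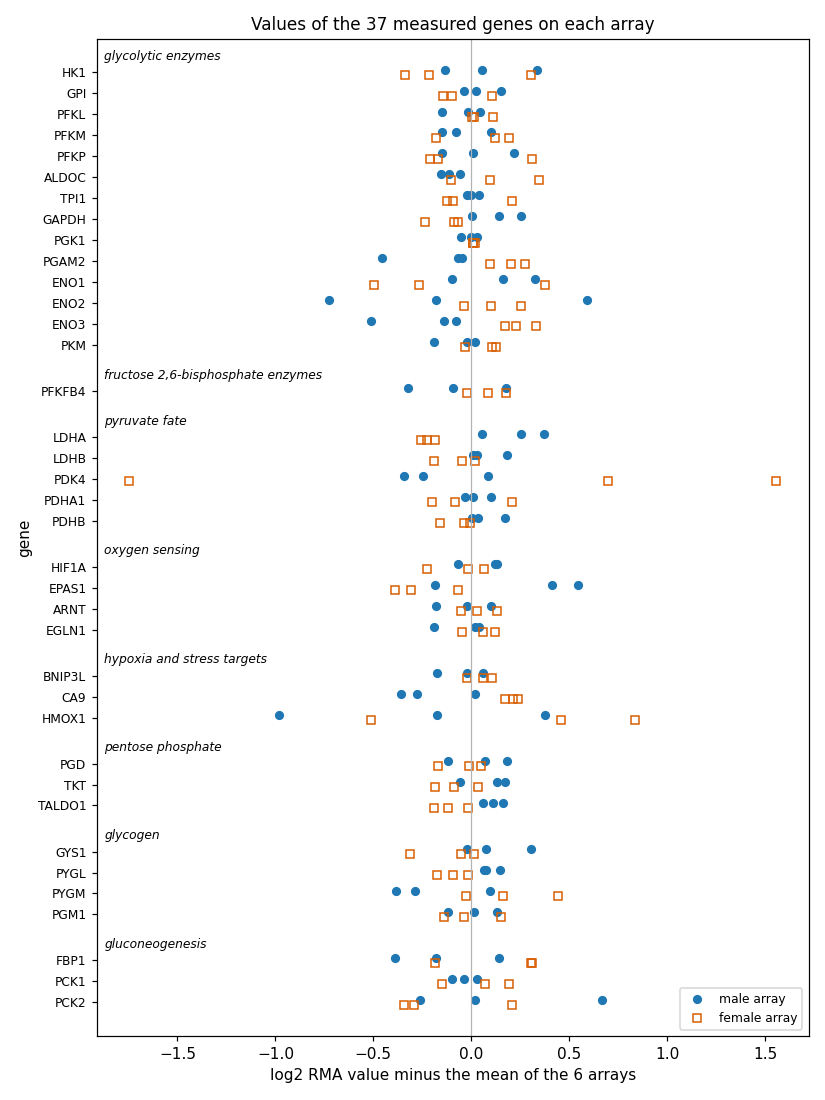
Log2 RMA value of each measured gene on each array, minus the gene's mean over the 6 arrays, for 3 male arrays (filled circles, upper row of each gene) and 3 female arrays (open squares, lower row), grouped by role. Male and female values interleave for most genes, and the female values of PDK4 spread over 3.29.

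The tissue was checked against marker lists. Of 12 listed markers of valve interstitial cells and fibroblasts, 10 were measured, none under the 25th percentile of the array (5.53), with a mean level of 12.36 to 12.47 on male arrays and 12.41 to 12.52 on female arrays. Endothelial markers were still present after scraping, and 10 of 12 measured ones had a higher mean in males. Of 14 measured markers of cardiac and skeletal muscle, 9 lay under the 25th percentile, and their mean level was 5.43 to 5.49 on male and 5.39 to 5.53 on female arrays. The Y-linked EIF1AY matched the stated sex on 6 of 6 arrays. Correlations over all features were 0.972 to 0.987 between a male and a female array and 0.987 to 0.993 within a sex, and array medians were 7.33 to 7.38.

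Among the glycolytic enzymes 14 of 18 were measured, 6 with a higher and 8 with a lower mean in males, and none passed the test. Their median log2 fold change was -0.05. HK1, the hexokinase that traps glucose in the cell, had a log2 fold change of 0.17 and GPI, the isomerase that follows it, one of 0.09. The phosphofructokinases, which commit sugar to glycolysis, differed little between the sexes. The liver form PFKL was at 10.23, 10.10 and 10.29 in males and at 10.26, 10.36 and 10.25 in females. The muscle form PFKM was at 8.90, 8.83 and 9.08 in males and at 8.80, 9.17 and 9.10 in females, and the platelet form PFKP at 10.12, 9.75 and 9.91 in males and 9.69, 10.21 and 9.73 in females. The sexes overlapped for all 3 forms, with log2 fold changes of -0.08, -0.09 and 0.05. PFKFB4, which makes the activator of this step, had a log2 fold change of -0.16 (95% interval -0.50 to 0.18).

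In the middle of the pathway most differences were also close to 0. ALDOC, an aldolase, had a mean of 7.89 ± 0.05 in males and 8.11 ± 0.23 in females (SD, n = 3 each), and TPI1, which interconverts the 2 trioses, was at 11.70 ± 0.03 in males and 11.69 ± 0.18 in females. PGK1, the X-linked phosphoglycerate kinase that makes the first ATP, was among the least variable features. It read 12.24, 12.21 and 12.16 in males and 12.23, 12.22 and 12.22 in females, so all 6 arrays lay within 0.08, or 1.06-fold. Its SD within a sex, 0.03, was at the 0.6th percentile of all probe sets, and its log2 fold change was -0.02 (95% interval -0.23 to 0.19). PKM, the pyruvate kinase, had a log2 fold change of -0.13.

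The 3 enolases, which make phosphoenolpyruvate, did not share a direction. The ubiquitous ENO1 was at 11.97, 11.81 and 11.55 in males and at 11.38, 12.02 and 11.15 in females (log2 fold change 0.26, 95% interval -0.29 to 0.81). Female 2 gave the highest of the 6 values and female 3 the lowest, and the fold change was 0.51 without female 2 and 0.08 without female 3. ENO2, the neuronal form, was at 7.30, 7.85 and 8.62 in males and at 7.99, 8.13 and 8.28 in females, so the males enclosed the females. ENO3, the muscle form, was at 6.37, 6.74 and 6.80 in males and at 7.05, 7.21 and 7.11 in females, a mean of 6.64 ± 0.23 in males and 7.12 ± 0.09 in females. Every male value lay below every female value, and the log2 fold change of -0.49 (95% interval -0.81 to -0.16) had an unadjusted p of 0.00961 and an adjusted p of 0.178 from limma.

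PGAM2 and PYGM, also muscle forms, had lower means in males without passing the test. PGAM2, the muscle phosphoglycerate mutase, was at 5.60, 6.01 and 5.99 in males and at 6.15, 6.33 and 6.26 in females (log2 fold change -0.38, adjusted p = 0.244 from limma). PYGM, the muscle glycogen phosphorylase, was at 6.16, 6.54 and 6.06 in males and at 6.61, 6.89 and 6.42 in females (-0.38, adjusted p = 0.318), and its 3 other probe sets had log2 fold changes of -0.15, -0.11 and -0.52. The sexes were apart for PGAM2 and overlapped for PYGM, while PFKM had a log2 fold change of -0.09 only. ENO3, PGAM2 and PYGM are dim on the array, all 3 under its median of 7.36. Other genes of the list used in muscle went the other way, LDHA (0.45, sexes apart) and the glycogen synthase GYS1 (0.23, with overlap). The muscle markers had a median log2 fold change of -0.06, 5 higher and 9 lower in males. The only marker among them with an unadjusted p under 0.05, PLN, was higher in males (1.32, adjusted p = 0.158 from limma). The part of muscle cells in these values was not tested.

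GAPDH, which oxidizes glyceraldehyde 3-phosphate, was the gene to which the qRT-PCR of the study was normalized. It was at 13.99, 13.88 and 13.74 in males and at 13.65, 13.67 and 13.50 in females, a mean of 13.87 ± 0.12 in males and 13.61 ± 0.09 in females (SD, n = 3 each). The lowest male lay above the highest female by less than 0.1, and the log2 fold change of 0.26, or 1.2-fold (95% interval 0.01 to 0.52), had an adjusted p of 0.289 from limma. The array carries 14 probe sets for GAPDH, 9 of them controls along the transcript. All 14 had a higher mean in males, by 0.02 to 0.56 on the log2 scale, also with the arrays centred on their medians (0.01 to 0.55), and for 5 of them the sexes did not overlap. They read the same 6 samples and are not independent, and whether all 14 read the same transcript was not tested.

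**Figure D3:**
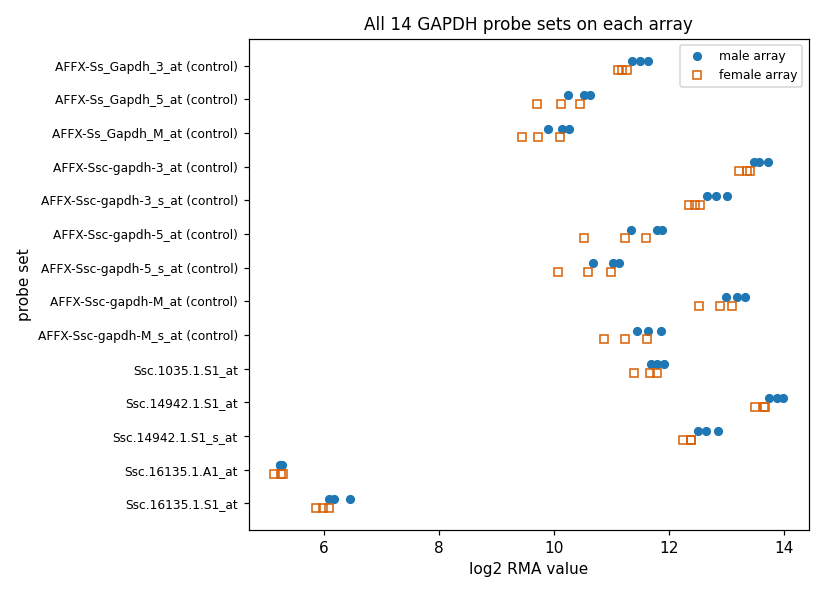
Log2 RMA value of all 14 GAPDH probe sets, controls included, on 3 male arrays (filled circles, upper row) and 3 female arrays (open squares, lower row). Male 1 is the highest array for 13 of the 14 and female 3 the lowest for 12.

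Male 1 gave the highest value for 13 of the 14 GAPDH probe sets and female 3 the lowest for 12. The distance between the 3′ and the 5′ control of GAPDH, which grows when RNA is degraded, was 1.84, 1.78 and 2.14 in males and 2.13, 1.80 and 2.69 in females for one pair of controls. For the other GAPDH pair it was 1.01, 0.97 and 1.12 in males and 1.06, 0.83 and 1.39 in females, again with the largest distance in female 3. One pair of ACTB controls also had it largest in female 3 (2.55, 2.35 and 2.57 in males and 2.95, 2.84 and 3.80 in females). For this pair every female lay above every male, so this measure differed by sex. The other ACTB pair did not have it largest in female 3 (0.88, 0.67 and 0.85 in males and 0.52, 0.79 and 0.57 in females). In that pair and in both GAPDH pairs the sexes overlapped. Without female 3 the log2 fold change of GAPDH was 0.21, and over all 6 omissions it was 0.20 to 0.33. The part of RNA integrity in these differences was not tested.

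Values taken relative to GAPDH on each array, a scale chosen after the data were seen, are shifted down in males for every gene by the difference of GAPDH itself. By that construction the median log2 fold change became -0.27 for the other 36 genes and for all probe sets alike, and 3 of the 36 (LDHA, EPAS1 and PCK2, 8.33%) still had a higher mean in males, against 14% of all probe sets. The sexes did not overlap for 17 of the 36 (47.2%) on that scale, against 36.8% of all probe sets. In limma 0 were called, and 9 had an unadjusted p under 0.05, against 30% of all probe sets.

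Genes that decide the fate of pyruvate had 5 of 7 members measured, 4 with a higher mean in males and 1 with a lower one. LDHA, the lactate dehydrogenase subunit that favours lactate formation, had the lowest p of the whole list. It was at 12.32, 12.20 and 12.00 in males and at 11.76, 11.69 and 11.72 in females, a mean of 12.17 ± 0.16 in males and 11.72 ± 0.04 in females (SD, n = 3 each). Each male lay above each female, by 1.37-fold on average (log2 fold change 0.45, 95% interval 0.18 to 0.72). The unadjusted p was 0.00513 and the adjusted p 0.151 from limma, and with each array left out in turn the log2 fold change was 0.38 to 0.54 and the adjusted p 0.0834 to 0.415.

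LDHB, the subunit that favours the use of lactate, was at 12.97, 12.80 and 12.82 in males and at 12.81, 12.74 and 12.60 in females, with overlap (log2 fold change 0.14, 95% interval -0.11 to 0.40). RefSeq lists 2 pig genes named LDHB, and whether the probe set reads both was not tested. PDHA1, the X-linked catalytic subunit of pyruvate dehydrogenase, was at 9.18, 9.14 and 9.27 in males and at 9.09, 9.38 and 8.97 in females (log2 fold change 0.05, 95% interval -0.26 to 0.35). Its partner subunit PDHB was at 11.51, 11.37 and 11.34 in males and at 11.30, 11.18 and 11.33 in females. The sexes were just apart, and the interval of its log2 fold change of 0.14, from -0.10 to 0.38, holds 0. Neither X-linked gene of the list, PGK1 or PDHA1, differed by more than 1.33-fold between any arrays.

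PDK4, the kinase that shuts off pyruvate dehydrogenase when fat is burned, stood apart by its spread and not by sex. It was at 9.91, 9.81 and 10.24 in males and at 11.71, 8.41 and 10.85 in females, so female 1 read 9.8 times as high as female 2 while the males lay within 0.43 on the log2 scale. Its second probe set gave the same order, 7.96, 7.56 and 8.02 in males and 9.62, 6.04 and 8.23 in females. The SD within a sex, 1.22, was at the 99.8th percentile of all probe sets, and the log2 fold change of -0.34 had a 95% interval from -2.10 to 1.43. It was 0.35 without female 1 and -1.29 without female 2 (adjusted p = 0.148 from limma), so its sign depends on single pigs. The order female 1, female 3, female 2 was that of 20.3% of all probe sets. A similar share of further genes of glucose use and hypoxia had it, 14 of 65. TXNIP, an inhibitor of glucose uptake, was 1 of them (13.11, 13.42 and 13.49 in males and 13.89, 13.04 and 13.55 in females).

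**Figure D4:**
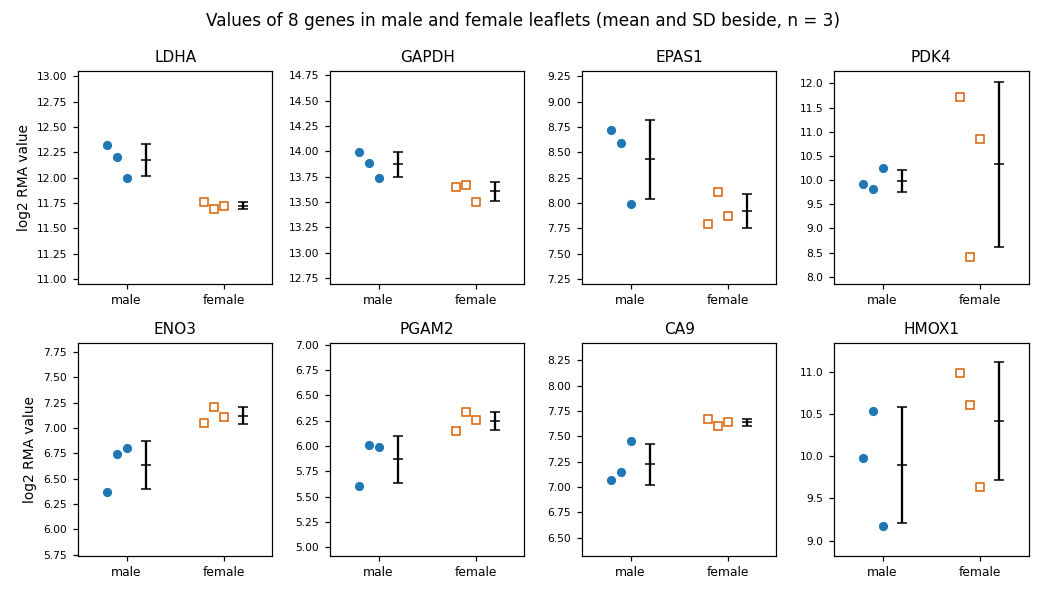
Log2 RMA values of 8 genes on 3 male arrays (filled circles) and 3 female arrays (open squares), left to right in the order of the labels, and black bars give mean and SD. The vertical axes differ in centre and span. LDHA and GAPDH lie higher in males without overlap, ENO3, PGAM2 and CA9 lower without overlap, and EPAS1, PDK4 and HMOX1 overlap.

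In oxygen sensing 4 of 6 genes were measured. HIF1A, the oxygen-regulated subunit of HIF-1, was at 12.18, 12.17 and 11.98 in males and at 12.03, 12.11 and 11.82 in females, with overlap (log2 fold change 0.12, 95% interval -0.16 to 0.40). Its 3 other probe sets are dimmer. One was at 7.66, 7.75 and 7.37 in males and at 6.67, 7.45 and 5.50 in females, lowest in female 3. Its log2 fold change of 1.05 had an adjusted p of 0.291 from limma. The others, both under the 25th percentile, had log2 fold changes of 0.35 (unadjusted p = 0.0315, adjusted p = 0.253, sexes apart) and 0.04, and the mean of all 4 had one of 0.39 (adjusted p = 0.299). EPAS1, also called HIF-2 alpha and abundant in endothelial cells, was at 8.72, 8.59 and 7.99 in males and at 7.79, 8.11 and 7.87 in females. Male 3 fell among the females, and the log2 fold change of 0.51 (95% interval 0.03 to 0.99) had an adjusted p of 0.275 from limma. It was 0.74 without male 3 (adjusted p = 0.0667) and 0.37 without male 1. ARNT, the shared partner, had a log2 fold change of -0.07 at a level under the 25th percentile of the array, and EGLN1 one of -0.09. The other probe sets of EGLN1 had log2 fold changes of -0.31 (95% interval -0.63 to 0.02, sexes apart) and -0.01.

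Most endothelial markers were high on the same arrays as LDHA, GAPDH and EPAS1. Of the 12 measured, 7 had an unadjusted p under 0.05, all higher in males, a pattern of 8.08% of all probe sets. For 6 the males lay above the females without overlap, a pattern of 11.1% of all probe sets. In the fit over all features 0 were called. With the CV filter, which kept 7 of them, 2 were called, both higher in males, against 7.59% of the features kept. These were ESAM (1.59, adjusted p = 0.0395 from limma) and ICAM2 (1.70, adjusted p = 0.026). Over all probe sets, without that selection, their adjusted p values from limma were 0.115 and 0.0751. The median of all 12 log2 fold changes was 0.80. Their mean level was 8.89 to 9.76 on male arrays and 8.40 to 8.97 on female arrays, and 1 of the 12 lay under the 25th percentile. PECAM1, which joins endothelial cells, was at 13.69, 13.31 and 12.61 in males and at 12.16, 12.28 and 11.83 in females. Not all markers followed this. VWF was highest on female 2, at 10.58, 10.90 and 9.68 in males and 9.27, 11.33 and 9.41 in females. KDR and ERG had lower means in males (log2 fold changes of -0.19 and -0.25). The KDR probe set used here is the marker under the 25th percentile, so its difference says little. The study reports KDR as higher in males. Male 1 was the highest array for 8 of the 12 markers, and male 3 the lowest male for 11. LDHA, GAPDH and EPAS1 likewise had their highest value in male 1 and their lowest male value in male 3. Over the list, male 1 was the highest male for 16 of the 37 genes and male 3 the lowest male for 19. These counts of arrays have no share over all probe sets beside them. The part of endothelial RNA in the differences of LDHA, GAPDH and EPAS1 was not tested. In bulk tissue fewer cells of a type and less RNA per cell cannot be told apart.

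**Figure D5:**
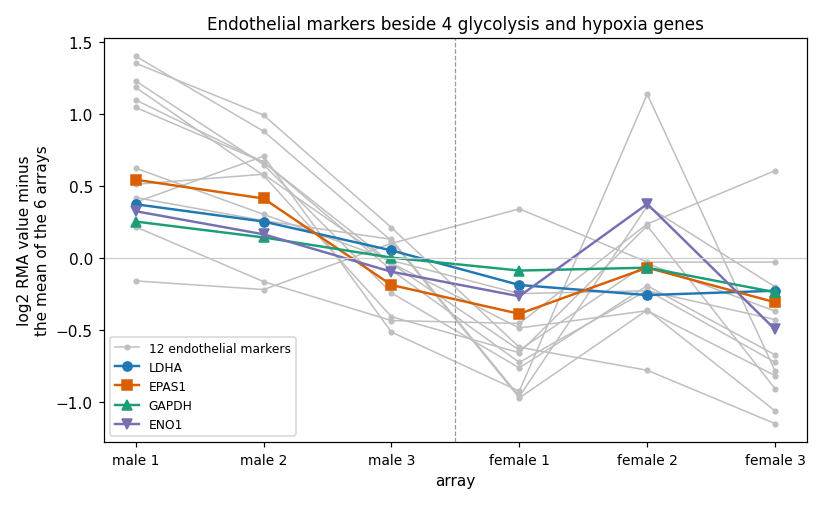
Log2 RMA value minus the gene's mean over the 6 arrays, for 12 endothelial markers (grey) and for LDHA, EPAS1, GAPDH and ENO1 (coloured), with lines joining the values of each gene. Most markers, LDHA, EPAS1 and GAPDH are highest on male 1, and ENO1 is highest on female 2.

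Targets of hypoxia and stress had 3 of 6 members measured, all with a lower mean in males. CA9, a carbonic anhydrase that HIF-1 induces strongly, was at 7.07, 7.15 and 7.45 in males and at 7.67, 7.60 and 7.64 in females, a mean of 7.22 ± 0.20 in males and 7.63 ± 0.04 in females (SD, n = 3 each). No male reached a female value, and the log2 fold change of -0.41 (95% interval -0.71 to -0.12) had an adjusted p of 0.191 from limma. Its 2 other, dimmer probe sets showed log2 fold changes within 0.02 of 0. HMOX1, the heme oxygenase of the stress response, was at 9.98, 10.53 and 9.17 in males and at 10.99, 10.61 and 9.64 in females. It was the second most variable gene of the list within a sex (SD 0.69, 98.5th percentile), and its log2 fold change of -0.52, the largest in size of the list, had an interval from -1.54 to 0.50. It was -0.91 without female 3 and -0.16 without male 3. BNIP3L, a mitophagy receptor, had a log2 fold change of -0.09.

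The 3 enzymes of the pentose phosphate pathway, which supplies NADPH and ribose, were all measured and all had a slightly higher mean in males. The transaldolase TALDO1 was at 11.80, 11.75 and 11.85 in males and at 11.67, 11.57 and 11.50 in females, without overlap (log2 fold change 0.22, 95% interval -0.01 to 0.45, adjusted p = 0.323 from limma). The transketolase TKT had a log2 fold change of 0.16 and the dehydrogenase PGD one of 0.09.

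Glycogen genes had 4 of 5 members measured. PYGL, the liver glycogen phosphorylase, was at 11.23, 11.24 and 11.31 in males and at 11.15, 11.07 and 10.99 in females, without overlap (log2 fold change 0.19, 95% interval -0.04 to 0.42), the opposite sign to that of the muscle form. The glycogen synthase GYS1 had a log2 fold change of 0.23 and PGM1, which links glycogen to glycolysis, one of 0.02. Among the genes of gluconeogenesis, the phosphatase FBP1 had a log2 fold change of -0.28, the cytosolic PCK1 one of -0.08 and the mitochondrial PCK2 one of 0.29, all with intervals that hold 0. Both PCK genes were dim, under the median of the array.

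The female arrays also differed among themselves. Female 3 gave the lowest of the 3 female values for 20 of the 37 genes (54.1%), against 31.2% of annotated genes and 27.7% of all probe sets. Female 2 gave the highest of the 3 for 19 of the 37, against 32.6% of all probe sets. Over all 6 arrays, female 3 was the lowest for 13 genes, and male 1 the highest for 13 and female 2 for 11. These last counts have no share over all probe sets beside them. The median SD within a sex was 0.14 in the list and 0.17 over all probe sets, and 27 of the 37 genes had one under 0.2. This is a description of 6 pigs, and the 3′ to 5′ distances given above were larger in female 3 for 3 of 4 control pairs.

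The other genes of glucose use and the hypoxia response were taken from lists of transporters and neighbouring enzymes, hypoxia genes and transcription factors. Of 107 such genes 65 were measured, 38 with a higher and 27 with a lower mean in males. Of all annotated genes, 58.3% had a higher mean in males. Among the 65, 11 had an unadjusted p under 0.05 (5 higher and 6 lower), against 16.9% of all probe sets. Both counts were close to these shares. The secreted hormone STC1 was the only one called in the fit over all probe sets (log2 fold change 2.44, adjusted p = 0.044 from limma). That fit called 0.304% of all probe sets. STC1 was not called without male 1, male 2, female 2 or female 3. In those omissions the calls over all probe sets also fell, from 73 to 21, 13, 40 and 20. With the CV filter the adjusted p of STC1 was 0.00532 from limma. The study lists STC1 as higher in males and measured it by qRT-PCR too. Genes that HIF induces had fold changes of both signs.

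VEGFA, the main vessel growth factor, was at 10.69, 10.96 and 11.03 in males and at 10.05, 10.80 and 9.32 in females (log2 fold change 0.84, adjusted p = 0.283 from limma), with overlap and again the lowest value in female 3. ANGPTL4, which inhibits lipoprotein lipase, was at 6.68, 7.07 and 6.36 in males and at 8.22, 8.75 and 7.54 in females (-1.47, adjusted p = 0.119 over all probe sets and 0.0458 with the CV filter). The sexes were well apart for ANGPTL4, and the glucose transporter SLC2A1 also lay lower in each male, at 7.78, 7.67 and 7.82 in males and 8.28, 8.49 and 7.84 in females (-0.45, adjusted p = 0.26). PDK3, another kinase of pyruvate dehydrogenase and X-linked, had a log2 fold change of -0.55. The pyruvate carboxylase PC had one of -0.77, while BPGM, which makes 2,3-bisphosphoglycerate, had one of 0.50. For PDK3, PC and BPGM alike the sexes did not overlap. None of these last 3 was called over all probe sets, and PC, the only one that the CV filter kept, had an adjusted p of 0.161 there.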

How the data were processed

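RNA from 3 castrated male and 3 female pig aortic valve leaflets, 1 pig per array, was measured on the Affymetrix Porcine Genome Array. The log2 values deposited by the authors come from RMA in R 2.12.0 (background correction, normalization between arrays, summary of each probe set). They were used as deposited, for 24123 probe sets of which 124 are controls. Raw intensities were not used, and 6 arrays limit the precision.

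Males and females were compared with limma 3.58.1 under R 4.3.3 (linear fit with empirical Bayes moderation, males minus females, without covariates) over the 23999 probe sets other than controls, with Benjamini-Hochberg adjustment. A second fit used the 10% of all probe sets with the highest CV (SD divided by mean of the log2 values). It called 183 features, as many as the genes that the study reports. The methods name a CV filter but not its limit. Their supplement gives its aim as removing values that differ between replicates, so a filter on a low CV within a sex was added. Figures were drawn with matplotlib 3.10.9.

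Symbols are those of the array annotation, where 10099 probe sets have 1 gene. Of these, 9989 have a gene ID that RefSeq (assembly Sscrofa11.1) lists. Per-array values are given for genes with an unadjusted p under 0.05, the 6 with the largest difference, GAPDH, HIF1A, EPAS1, the X-linked genes and the LDH, PFK and ENO forms. PDK4, PDHB, TALDO1 and PYGL were added after their values were seen. The genes and lists were chosen with earlier results of these data known. The fit was tested on simulated data, and each array was left out in turn. No sequences were read.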

Additional observations from a re-analysis of the deposited data

How the results depend on the processing

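No gene of the list was called at 2-fold under any alternative tried: each array left out, all probe sets of a gene averaged, updated symbols, median-centred arrays, an intensity trend, the replicate number as a block, low values left out, no minimum fold, or other forms of the CV filter. Over all probe sets the lowest adjusted p of a gene of the list was 0.0667 from limma (EPAS1 without male replicate 3). With the CV filter it was 0.0681 (PDK4 without female replicate 2), and with probe sets of low CV within a sex 0.0102 (LDHA), under 2-fold. The replicate number as a block gave 7 genes at an unadjusted p under 0.05 in place of 6. Over all probe sets it gave 204 calls in place of 73. The deviations of samples with the same number correlated at r of -0.10, 0.01 and 0.27. These values cannot decide whether the numbers pair the pigs, and the sample titles do not say so.

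With each array left out, the genes without overlap of the sexes numbered 8 with all arrays and 9 to 21 with 1 left out. They were 21 (56.8%) without female replicate 2, against 39.8% of all probe sets, and 16 (43.2%) without male replicate 3, against 38.3%. Fewer arrays overlap less often, and the rest of the difference was not tested. Genes at an unadjusted p under 0.05 numbered 3 to 7, with 3 without male replicate 1, and the median log2 fold change was -0.02 to 0.09. The other genes of the pathway had 0 to 1 calls, STC1 being lost in 4 of 6 omissions, 0 with probe sets averaged, and 2 with the replicate block. Relative to GAPDH, a scale chosen after the data were seen, 17 of 36 genes did not overlap, 3 had a higher mean in males, the median was -0.27, and the other genes had 2 calls.

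Small log2 fold changes turned sign. With each array left out, PFKP was -0.04 to 0.22 (negative without female replicate 1 or 3 or male replicate 1), PGK1 -0.04 to 0.01 (positive without male replicate 3), ENO2 -0.56 to 0.10 (positive without male replicate 1), PDK4 -1.29 to 0.35 (positive without female replicate 1) and PDHA1 -0.04 to 0.17 (negative without female replicate 3). The causes were not tested. Relative to GAPDH, PFKP was -0.21, ENO1 was -0.0045, LDHB -0.12, PDHA1 -0.21 and HIF1A -0.14, which follows from the scale, since subtracting GAPDH lowers every difference by its own 0.26.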
